A study of Homo sapiens with 2 samples.

Results

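The mitochondrial ribosomal protein genes are the nuclear genes named MRPL or MRPS, which encode proteins of the ribosome inside mitochondria. Protein-coding genes whose symbol was MRPL or MRPS followed by a number and at most 1 letter were taken, and 77 of the 18518 gene numbers in both tables met this rule. All 77 were listed in both tables. They comprised 49 MRPL and 28 MRPS symbols on 21 chromosomes.

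The 2 RNA-seq libraries came from the established human embryonic stem cell line H1, collected at day 3 of differentiation towards blood. One was made from H1 cells whose genotype was given as MEIS1-/- and the other from wild-type H1. Both received activin A (40 ng/ml) with BMP4 (50 ng/ml) over 2 days, after which the medium held VEGF (40 ng/ml) with bFGF (50 ng/ml). MEIS1 encodes a homeodomain transcription factor that acts with HOX and PBX proteins, and the labels gave neither the deleted part of the gene nor the number of clones. There was 1 library per genotype, so no test between genotypes was possible, and the differences given are those between a pair of libraries.

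The mitochondrial ribosome translates the few mRNAs that mitochondrial DNA encodes, all of them for membrane subunits of the respiratory chain and ATP synthase. Its proteins are made in the cytosol and imported, and they assemble on ribosomal RNA transcribed within the organelle. Some have a counterpart in bacterial ribosomes and others are specific to mitochondria. By the structure of the human mitochondrial ribosome, 26 of the 77 belong to the small subunit, which reads the mRNA, and 51 to the large subunit, which joins amino acids. MRPS30 and MRPS18A carry a small-subunit name but sit in the large subunit and were counted there. By the same nomenclature 46 have a bacterial counterpart and 31 are specific to mitochondria.

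Promoter sequences are shown first for genes whose values are described below, because short motifs recurred in them. Start sites and windows of 300 bases were taken from RefSeq on GRCh38.p14, the first window listed for each gene, and 69 of the 77 genes matched. Each line gives the stretch from 150 bases before the start site to 30 bases after it, 5′ to 3′ on the gene's own strand. Capitals mark matches to a core motif of ETS factors (CCGGAAG, or CTTCCGG on the other strand) and to a core motif of the zinc finger factor YY1 (AAGATGGC, or GCCATCTT on the other strand).
MRPL51, chr12:6493233-6493412, minus strand: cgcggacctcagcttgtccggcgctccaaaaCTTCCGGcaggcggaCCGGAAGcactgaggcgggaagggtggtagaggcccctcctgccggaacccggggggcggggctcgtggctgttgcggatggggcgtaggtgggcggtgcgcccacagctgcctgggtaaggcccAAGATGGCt
MRPL46, chr15:88467359-88467538, minus strand: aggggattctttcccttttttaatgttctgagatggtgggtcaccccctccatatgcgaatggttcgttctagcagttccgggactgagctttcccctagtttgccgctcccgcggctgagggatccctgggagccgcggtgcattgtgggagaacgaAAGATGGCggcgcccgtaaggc
MRPL48, chr11:73787724-73787903, plus strand: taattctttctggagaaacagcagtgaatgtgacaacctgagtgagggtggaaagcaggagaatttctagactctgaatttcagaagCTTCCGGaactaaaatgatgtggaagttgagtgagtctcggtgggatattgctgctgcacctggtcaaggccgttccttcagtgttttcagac
MRPL27, chr17:50373155-50373334, minus strand: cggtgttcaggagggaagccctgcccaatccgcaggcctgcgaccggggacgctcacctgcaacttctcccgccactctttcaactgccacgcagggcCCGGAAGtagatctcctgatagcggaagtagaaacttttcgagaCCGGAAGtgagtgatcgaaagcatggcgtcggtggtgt
MRPL41, chr9:137551729-137551908, plus strand: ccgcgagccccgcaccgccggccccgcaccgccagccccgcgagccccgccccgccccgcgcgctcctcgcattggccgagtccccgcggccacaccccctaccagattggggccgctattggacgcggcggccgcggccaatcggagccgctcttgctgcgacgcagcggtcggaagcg
MRPL51 had the highest level of all the genes and its stretch held a pair of ETS matches and 1 YY1 match. MRPL46, MRPL48 and MRPL27 were higher in the library labelled MEIS1-/-, as given below. MRPL41, with the lowest ratio of all, had no match to either motif. Other genes paired differently: MRPS9, also higher, had none, while MRPL28 and MRPS26 had an ETS match and MRPS7 a YY1 match at ratios below 1 with intervals that included 1.

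Levels are first given as FPKM, which scales for gene length and library depth. The median over the 77 genes was 24.1 FPKM in the library labelled MEIS1-/- and 21.5 FPKM in the wild-type library, against 5.13 and 5.24 FPKM over all listed genes. The lowest and highest levels were 6.43 and 101 FPKM in the library labelled MEIS1-/-, and 5.62 and 76.3 FPKM in wild type. Levels differed by 15.8-fold within the library labelled MEIS1-/- and by 13.6-fold within wild type, although the assembled ribosome holds most of these proteins at equal number. The order of the genes was alike in both libraries, with a Spearman correlation of 0.93 across the 77 genes, which share both libraries and their scaling.

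The same 5 genes led in both libraries. MRPL51, a large-subunit protein specific to mitochondria, had 101 FPKM in the library labelled MEIS1-/- and 76.3 FPKM in wild type. MRPS15, a small-subunit protein with a bacterial counterpart, had 89.6 and 74.7 FPKM in the same order of libraries. MRPL3, a large-subunit core protein, had 75.4 FPKM in the library labelled MEIS1-/- and 70.2 FPKM in wild type. MRPS6 and MRPS21 of the small subunit stood next, MRPS6 with 65.5 FPKM in the library labelled MEIS1-/- and 69.99 FPKM in wild type, and MRPS21 with 62.6 FPKM and 58.7 FPKM. Together these 5 genes made up 18.8% of the summed FPKM of the 77 in the library labelled MEIS1-/- and 18.2% in wild type.

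Of the 5 genes lowest by mean level, MRPL22 had 6.43 FPKM in the library labelled MEIS1-/- and 5.62 FPKM in wild type, and MRPS25 had 8.55 and 7.85 FPKM. MRPL1 had 10.4 FPKM in the library labelled MEIS1-/- and 9.33 FPKM in wild type. MRPL55 had 9.49 FPKM in the library labelled MEIS1-/- and 10.8 FPKM in wild type, and MRPS14 had 11.3 and 9.32 FPKM. Between these ends 64 of the 77 genes had 10 to 50 FPKM in both libraries, and neither subunit stood above the other: the medians were 25.1 FPKM for small-subunit and 23.9 FPKM for large-subunit genes in the library labelled MEIS1-/-, and 21.1 and 21.5 FPKM in wild type.

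**Figure D1:**
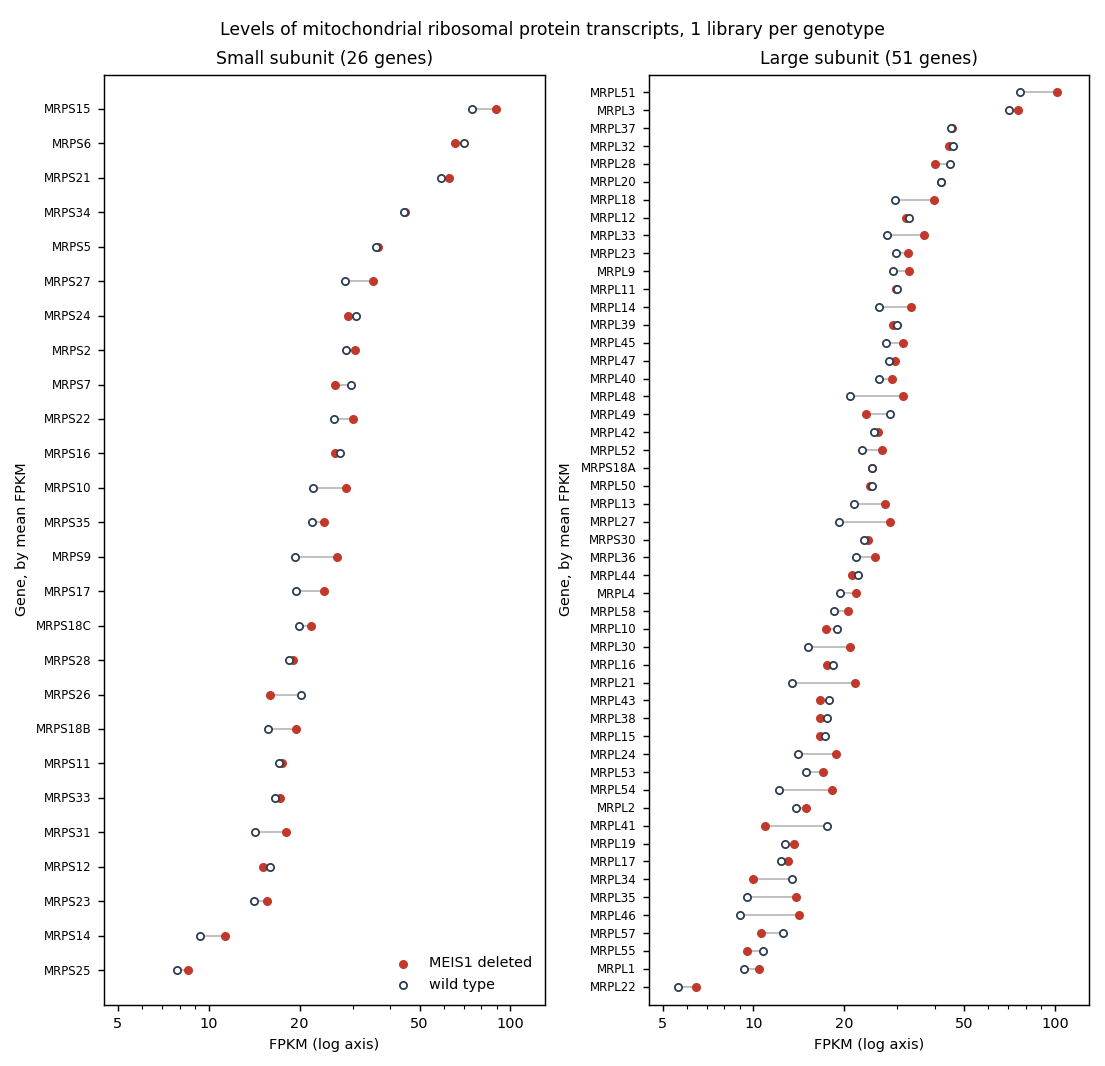
FPKM of each gene (log axis) in the library labelled MEIS1-/- (filled red) and the wild-type library (open), split by ribosomal subunit and ordered by mean level, with 1 library per genotype and no error bar. MRPL51 is highest and MRPL22 lowest in both libraries.

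Summed over the 77 genes, the transcripts took a slightly larger part of the library labelled MEIS1-/-. They held 14685 counts there, 0.277% of the library (exact 95% binomial interval 0.273 to 0.282), against 13299 counts and 0.256% in wild type (0.251 to 0.260). After scaling by effective library size, the summed ratio of the library labelled MEIS1-/- over wild type was 1.09 (1.07 to 1.12). Here and below, brackets after a ratio hold an exact Clopper-Pearson 95% interval, which covers counting error only: the spread between cultures was not measured, and a difference of this size could not be set against it. In bulk RNA, fewer cells of a type and less RNA per cell cannot be told apart.

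The ratio was above 1 for 55 of the 77 genes and below 1 for 22, and 50.3% of the 14381 genes compared over the whole tables had a ratio above 1. Genes were compared when they had at least 10 counts in 1 library or more, which all 77 did. The median log2 ratio was 0.12 for the 77 and 0.0033 for all genes compared, with quartiles of -0.0062 and 0.29 for the 77 and of -0.22 and 0.22 for all genes. In all, 74 of the 77 lay within 1.5-fold, against 82.7% of all genes compared, and none of the 77 reached 2-fold.

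Counting the single genes, 13 of 77 had an interval above a ratio of 1, or 16.9%, against 15.4% of all genes compared. This share was near that of all genes. Only 2 of the 77 had an interval below 1, or 2.60%, against 14.7% of all genes compared. The other 62 had an interval that included 1. Over all genes compared, 30.1% were called in either direction, against 15 of the 77. At 1.5-fold or more with an interval above 1 stood 2 genes, where 5.75% of all genes did, and 1 gene was lower by that rule, where 6.21% did.

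**Figure D2:**
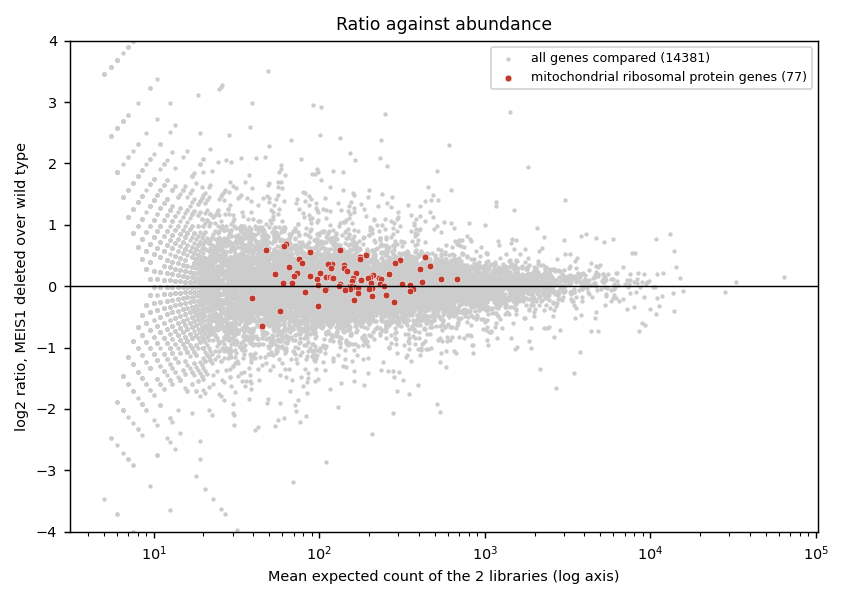
Log2 ratio of the library labelled MEIS1-/- over the wild-type library against the mean expected count (log axis) for all genes compared (grey) and the 77 mitochondrial ribosomal protein genes (red). The red points lie between -0.65 and 0.69, within the cloud of other genes of like abundance, and 29 other genes lie outside the plotted range.

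In the large subunit 9 of 51 genes were higher (17.6%), near the 15.4% of all genes compared. A further 2 were lower (3.92%), against 14.7% of all genes compared. MRPL21, which has a bacterial counterpart, had 79 counts in the library labelled MEIS1-/- and 48 in wild type, a ratio of 1.62 (1.12 to 2.38). MRPL46, specific to mitochondria, had 75 counts in the library labelled MEIS1-/- and 47 in wild type, a ratio of 1.57 (1.08 to 2.33). These were the 2 genes past 1.5-fold. MRPL48, also specific to mitochondria, had 161 counts in the library labelled MEIS1-/- and 106 in wild type, a ratio of 1.499 (1.17 to 1.94).

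MRPL27, with a bacterial counterpart, had 105 counts in the library labelled MEIS1-/- and 70 in wild type, a ratio of 1.48 (1.09 to 2.04). MRPL54 had 58 counts in the library labelled MEIS1-/- and 38 in wild type, and its ratio of 1.498 had an interval that included 1 (0.986 to 2.34). MRPL35 and MRPL30 had more reads behind them: MRPL35 had 228 counts in the library labelled MEIS1-/- and 158 in wild type, a ratio of 1.43 (1.16 to 1.76), and MRPL30 had 508 and 362 counts, a ratio of 1.39 (1.21 to 1.59). Both had expected counts that were not whole, so some reads may have been divided between them and other genes, which was not examined. The lower bound of MRPL30 was the highest of all 77. MRPL18 had a ratio of 1.35 (1.09 to 1.69), and MRPL51, the most abundant, had 356 counts in the library labelled MEIS1-/- and 263 in wild type, a ratio of 1.34 (1.14 to 1.58). MRPL13 completed the 9 higher large-subunit genes, with a ratio of 1.28 (1.005 to 1.63).

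In the small subunit 4 of 26 genes were higher (15.4%), the same share as over all genes compared. None was lower (0), against 14.7% of all genes compared. MRPS9 had 205 counts in the library labelled MEIS1-/- and 146 in wild type, a ratio of 1.39 (1.12 to 1.73). MRPS10 had 327 counts in the library labelled MEIS1-/- and 248 in wild type, a ratio of 1.30 (1.10 to 1.55). MRPS27, specific to mitochondria, had 519 counts in the library labelled MEIS1-/- and 410 in wild type, a ratio of 1.25 (1.10 to 1.43). MRPS15 had 447 counts in the library labelled MEIS1-/- and 366 in wild type, a ratio of 1.21 (1.05 to 1.39). MRPS10 and MRPS27 had expected counts that were not whole.

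At the lower end stood 2 large-subunit genes that are specific to mitochondria. MRPL41 had 35 counts in the library labelled MEIS1-/- and 55 in wild type, a ratio of 0.636 (0.400 to 0.980), which was the 1 gene lower by at least 1.5-fold. MRPL49 had 260 counts in the library labelled MEIS1-/- and 309 in wild type, a ratio of 0.833 (0.703 to 0.985), with expected counts that were not whole. Next to them, MRPL34 had a ratio of 0.753 (0.509 to 1.10) and the small-subunit gene MRPS26 had 0.801 (0.596 to 1.07), both with intervals that included 1. MRPL57, MRPS7, MRPL28 and MRPL10 had ratios of 0.854 to 0.929, and each of their intervals included 1.

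**Figure D3:**
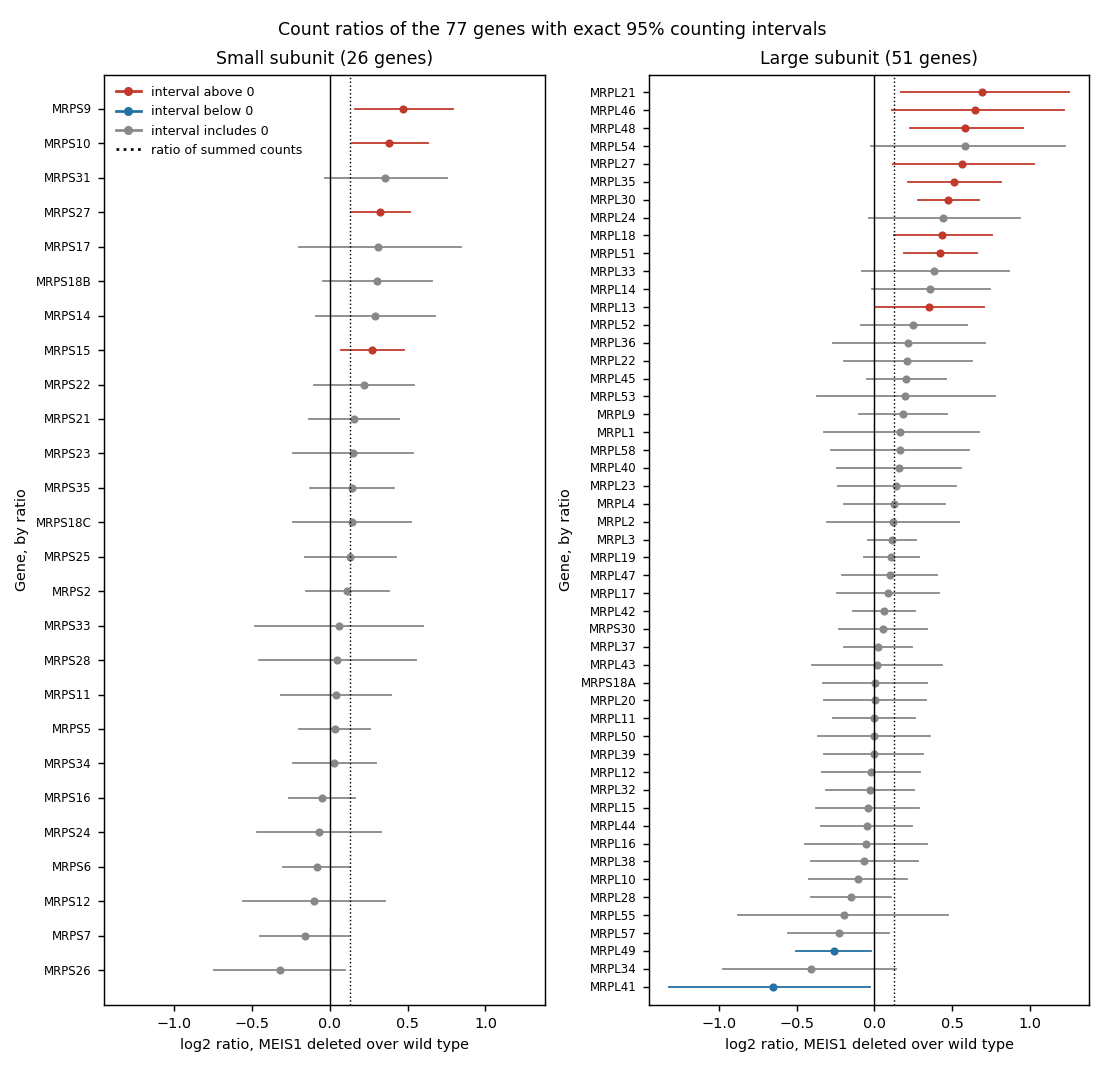
Log2 ratio of the library labelled MEIS1-/- over the wild-type library for each gene, by subunit, with exact 95% counting intervals (lines) and the log2 ratio of the summed counts (dotted). Of the 77 intervals, 13 lie above 0 (red) and 2 below (blue).

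The subunits and the classes by origin gave like values. The summed ratio was 1.097 (1.05 to 1.14) for small-subunit genes, with 5335 counts in the library labelled MEIS1-/- and 4813 in wild type, and 1.09 (1.06 to 1.12) for large-subunit genes, with 9350 and 8486 counts. Their medians were 0.13 and 0.11 on the log2 scale. Genes with a bacterial counterpart had a summed ratio of 1.10 (1.07 to 1.13), with 9 of 46 higher (19.6%, against 15.4% of all genes compared) and 0 lower. Genes specific to mitochondria had 1.08 (1.04 to 1.12), with 4 of 31 higher (12.9%) and 2 lower (6.45%, against 14.7% of all genes compared). In each of these pairs the intervals overlapped.

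Within the set, 63 of the 77 genes had an interval that included the summed ratio of 1.09, and 14 did not. The 8 above it were MRPL21, MRPL48, MRPL35, MRPL30, MRPS9, MRPL51, MRPS10 and MRPS27. The 6 below it were MRPL28, MRPS7, MRPL57, MRPL49, MRPS26 and MRPL41. Both groups mixed subunits and both mixed genes with a bacterial counterpart and genes specific to mitochondria. The summed ratio comes from these same genes and was taken as a fixed value. The like share among other genes was not computed, so whether 14 of 77 is many cannot be said.

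The paralogs MRPS18A, MRPS18B and MRPS18C take different places in the ribosome, MRPS18A in the large subunit and the others in the small one. MRPS18B had 156 counts in the library labelled MEIS1-/- and 125 in wild type, a ratio of 1.23 (0.970 to 1.58). MRPS18C had 127 counts in the library labelled MEIS1-/- and 114 in wild type, a ratio of 1.10 (0.849 to 1.43). MRPS18A had 155 counts in the library labelled MEIS1-/- and 153 in wild type, a ratio of 1.003 (0.797 to 1.26). All 3 intervals included 1 and overlapped each other. MRPS30, the other large-subunit gene with a small-subunit name, had a ratio of 1.04 (0.853 to 1.27).

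Transcript length, depth and expected counts that were not whole were examined beside these values. The genes had a median transcript length of 1161 bases, against 3040 bases over all genes compared. Among transcripts under 1000 bases, 6 of 25 of the genes were higher and 1 lower with a median log2 ratio of 0.20, and 695 other genes of that class had a median of 0.074, with 19.9% higher and 9.35% lower. From 1000 to 2000 bases the medians were 0.038 for 39 of the genes and 0.031 for 2833 others, and at 2000 bases or more 0.13 for 13 of the genes and -0.011 for 10776 others. Among other genes with counts in the range of the 77, the median was 0.0019. Length thus moved with the ratio over all genes, and its part in the summed ratio was not tested. For 17 of the 77 genes an expected count was not whole within 0.005, and the 60 others had a summed ratio of 1.09 (1.06 to 1.12).

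RefSeq lists 106 pseudogenes with such symbols, of which 3 had a row in the tables. MRPS31P5 had 78.9 expected counts in the library labelled MEIS1-/- and 70.5 in wild type, while MRPS31 itself had 127 and 98 counts. Summed, MRPS31 and MRPS31P5 had a ratio of 1.21 (0.985 to 1.497), and MRPS31 alone 1.28 (0.978 to 1.69). Whether reads of pseudogenes without a row were assigned to their parent genes was not tested. The 2 antisense genes listed were MRPL20-AS1, with 69 counts in the library labelled MEIS1-/- and 68 in wild type, and MRPL23-AS1, with 3 and 0 counts. Whether counting used strand is not given in the sources used here, so reads of a gene and its antisense partner cannot be told apart.

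Chromosome by chromosome, the 8 genes on chromosome 2 had a median log2 ratio of 0.29 with 3 higher (MRPL35, MRPL30 and MRPS9), and the 936 other genes compared there had a median of 0.032, with 18.4% higher and 14.3% lower. This chromosome was chosen after its values were seen.

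The other parts of mitochondrial translation differed among themselves. Mitochondrial ribosome subunits with other kinds of symbol were 5 genes, of which 2 were higher and 0 lower. Over all genes compared, 15.4% were higher and 14.7% lower. DAP3, a GTP-binding small-subunit protein, had 424 counts in the library labelled MEIS1-/- and 312 in wild type, a ratio of 1.34 (1.16 to 1.56), with expected counts that were not whole. AURKAIP1, of the small subunit, had 173 and 125 counts in the same order of libraries, a ratio of 1.37 (1.08 to 1.74). CHCHD1 (0.742, 0.495 to 1.10), GADD45GIP1 (0.918, 0.731 to 1.15) and PTCD3 (1.09, 0.968 to 1.24) had intervals that included 1.

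Assembly factors of the ribosome had 3 of 24 genes higher (12.5%) and 0 lower, against 15.4% and 14.7% of all genes compared. Their median log2 ratio was 0.038. The matrix protein gene C1QBP had 690 counts in the library labelled MEIS1-/- and 542 in wild type, a ratio of 1.26 (1.12 to 1.41), and RBFA, which acts in small-subunit maturation, had 1.27 (1.02 to 1.60). FASTKD2, an RNA-binding protein gene, had 1.25 (1.04 to 1.49), and both RBFA and FASTKD2 had expected counts that were not whole. Translation factors had 3 of 16 higher (18.8%) and 1 lower (6.25%), with a median of 0.13. SLIRP, an RNA-binding partner of LRPPRC, had a ratio of 1.34 (1.03 to 1.74), and OXA1L, the insertase that takes nascent chains into the inner membrane, was lower, with 477 counts in the library labelled MEIS1-/- and 603 in wild type, a ratio of 0.783 (0.693 to 0.884). The recycling factor gene MRRF had 1.31 (0.932 to 1.88). The aminoacyl-tRNA synthetases of mitochondria had 3 of 22 higher (13.6%) and 3 lower (13.6%), with a median of 0.010. MARS2, the methionine enzyme, had 52 counts in the library labelled MEIS1-/- and 99 in wild type, a ratio of 0.525 (0.364 to 0.734). SARS2, the serine enzyme, was also lower, with 78 and 106 counts, and FARS2, the phenylalanine enzyme, had 56 and 36 counts, a ratio of 1.52 (0.995 to 2.41).

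Genes for transcription and upkeep of mitochondrial DNA had 3 of 11 higher (27.3%) and 0 lower, with a median of 0.19. Over all genes compared, 15.4% were higher and 14.7% lower. The helicase gene TWNK had a ratio of 1.41 (1.08 to 1.85) and SSBP1, which binds single-stranded mitochondrial DNA, 1.21 (1.07 to 1.38), while the RNA polymerase gene POLRMT had 1.14 (0.939 to 1.40). Of 10 regulators of nuclear genes for mitochondria, 4 were higher (40%) and 0 lower. MYC had 500 counts in the library labelled MEIS1-/- and 362 in wild type, a ratio of 1.37 (1.19 to 1.57), and the nuclear receptor gene ESRRA had 95 and 61 counts, a ratio of 1.53 (1.11 to 2.16). Of the related coactivator genes, PPARGC1B had few counts, 40 in the library labelled MEIS1-/- and 22 in wild type (0.71 and 0.4 FPKM). Its ratio was 1.76 (1.04 to 3.18). PPRC1 had a ratio of 1.15 (1.02 to 1.29), and PPARGC1A had 1.499 with an interval that included 1 (0.964 to 2.41). GABPA, an ETS factor, had 421 counts in the library labelled MEIS1-/- and 470 in wild type, a ratio of 0.887 (0.775 to 1.01). YY1 had 610 and 597 counts, a ratio of 1.01 (0.902 to 1.13), and NRF1 had 100 and 106 counts, a ratio of 0.934 (0.703 to 1.24).

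Cytosolic ribosomal proteins, at far higher counts, had a summed ratio close to that of the mitochondrial ones. Their 86 genes held 180749 counts in the library labelled MEIS1-/- and 162290 in wild type, a ratio of 1.10 (1.095 to 1.11). Of 84 compared, 56 were higher (66.7%) and 0 lower, against 15.4% and 14.7% of all genes compared. Their median log2 ratio was 0.15. Their greater counts narrow the intervals, so their share of called genes cannot be set directly against all genes or the mitochondrial genes. For nuclear-encoded subunits of the respiratory chain, the summed ratio was 1.07 (1.03 to 1.11) for complex I, 1.04 (0.999 to 1.09) for complexes II and III, 1.02 (0.970 to 1.08) for complex IV and 1.07 (1.04 to 1.10) for complex V. The interval of the mitochondrial ribosomal proteins overlapped those of the cytosolic ribosomal proteins and of each of these complexes. The mRNAs encoded in mitochondrial DNA were not analysed here.

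**Figure D4:**
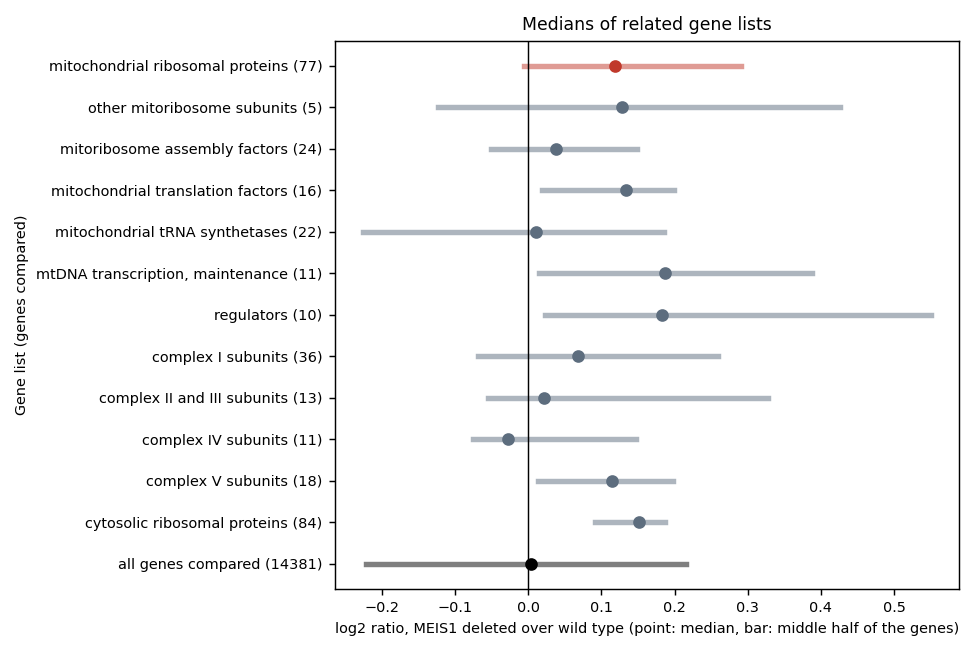
Median log2 ratio (points) and range between the quartiles (bars) of the library labelled MEIS1-/- over the wild-type library, for the mitochondrial ribosomal protein genes, related gene lists and all genes compared, with the number of genes compared after each name. The median of the mitochondrial ribosomal proteins is 0.12, that of the cytosolic ones 0.15 and that of all genes 0.0033.

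The share of promoter windows with ETS or YY1 letters was above that of expressed protein-coding genes as a whole, given as a description with no test. The ETS core CCGGAAG was found on either strand in 29 of 69 windows (42.0%), against 18.6% of the windows of 10849 protein-coding genes compared and 10.7% of all 27305 windows. The YY1 core AAGATGGC was found in 20 of 69 (29.0%), against 5.23% and 3.03%. Windows with both numbered 8 (11.6%, against 1.26% of protein-coding genes compared), those of MRPL51, MRPS10, MRPL52, MRPL47, MRPS18A, MRPL20, MRPL38 and MRPS12. In MRPL51, MRPL46 and MRPS27 the YY1 letters began 22, 9 and 17 bases from the start site, counted from 1 at the first transcribed base.

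Of the other motifs searched, the core GCATGCGC of NRF1 was in 6 of 69 windows (8.70%, against 5.35%), the SP1 letters GGGGCGG in 30 (43.5%, against 50.9%) and the TATA box letters TATAAA in 2 (2.90%, against 5.67%). The MEIS core TGACAG was in 3 of 69 windows (4.35%), those of MRPS27, MRPL53 and MRPS18A, against 13.1% of protein-coding genes compared. Of these, MRPS27 had a ratio of 1.25, given above, MRPL53 had 1.15 (0.773 to 1.71) and MRPS18A 1.003. A match describes the letters and is no evidence of binding. Little in the ratios went with the letters. With ETS letters 5 of 29 were higher and the median log2 ratio was 0.15, and without them 5 of 40 and 0.097. With YY1 letters 4 of 20 were higher with a median of 0.079, and without them 6 of 49 with a median of 0.13. Over all genes compared, 15.4% were higher. The protein-coding genes compared had a median of 0.033 with ETS letters and -0.010 with YY1 letters.

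**Figure D5:**
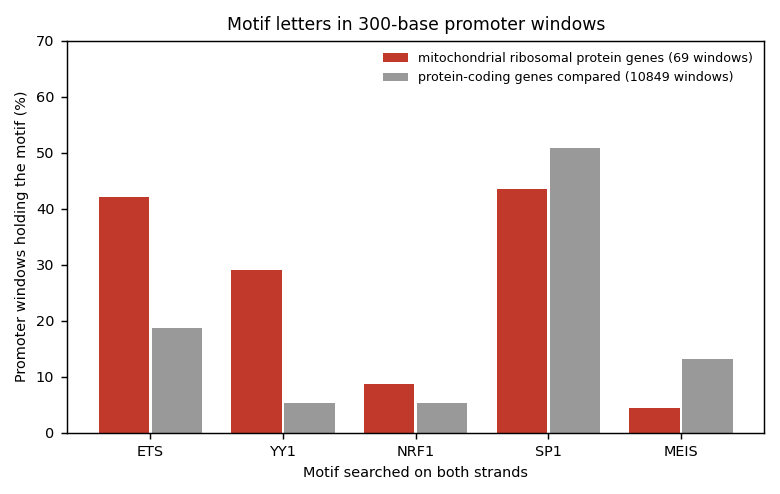
Share of 300-base promoter windows (%) that held each motif on either strand, for 69 mitochondrial ribosomal protein genes (red) and 10849 protein-coding genes compared (grey). ETS letters were in 42.0% and 18.6%, and YY1 letters in 29.0% and 5.23%.

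Some of the genes start close to another gene that runs the other way. For 17 of 69 genes (24.6%), the nearest opposite-strand start within 1000 bases upstream belonged to a compared protein-coding gene. The share was 11.4% over protein-coding genes compared. Coding genes beyond a nearer noncoding start were not counted. MRPL46 and MRPS11 form such a pair of their own, with starts 320 bases apart. MRPL46 was higher, as given above, and MRPS11 had 137 counts in the library labelled MEIS1-/- and 132 in wild type, a ratio of 1.03 (0.803 to 1.31). MRPL30 and MITD1, with starts 126 bases apart, were both higher, MITD1 with 105 counts in the library labelled MEIS1-/- and 67 in wild type, a ratio of 1.54 (1.13 to 2.14). MRPL18 and TCP1, a chaperonin subunit gene, were also both higher, TCP1 with a ratio of 1.25 (1.17 to 1.33). MRPL27, MRPL51 and MRPS27 were higher, while the intervals of their partners included 1. These were EME1 (0.983, 0.771 to 1.25), NCAPD2 (1.004, 0.918 to 1.10) and PTCD2 (1.19, 0.738 to 1.96). PPP1R10, the partner of MRPS18B, was lower (0.850, 0.748 to 0.965), and the interval of MRPS18B included 1. MRPL49 was lower while its partner FAU, a cytosolic ribosomal protein gene, had 589 counts in the library labelled MEIS1-/- and 515 in wild type, a ratio of 1.13 (1.004 to 1.28). SARS2, the seryl-tRNA synthetase gene beside MRPS12, was lower (0.731, 0.537 to 0.985), and MRPS12 had 80 counts in the library labelled MEIS1-/- and 85 in wild type, a ratio of 0.932 (0.678 to 1.28). Among the 17 partners 4 were higher (23.5%) and 2 lower (11.8%), against 15.4% and 14.7% of all genes compared. Of the 17 genes themselves, 6 were higher. The partners had a median log2 ratio of 0.0055 and the genes themselves 0.14. MRPL46 and MRPS11 were counted both as genes and as partners, and MRPL46 is among the higher partners. The medians are thus not of separate genes.

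Values of the whole libraries bear on all of these results. MEIS1 had 68 counts in the library labelled MEIS1-/- and 89 in wild type, a ratio of 0.759 (0.543 to 1.05), and the tables did not show which part of the gene the reads came from, so the labels could not be checked by it. Of the compared markers of pluripotent cells, 5 of 5 were lower, and with SOX2, which had too few counts to be compared (9 and 4), all 6 summed to 9504 counts in the library labelled MEIS1-/- and 11339 in wild type. LIN28A held 7251 and 7755 of these counts at a ratio of 0.925, while NANOG had a ratio of 0.522 and POU5F1 0.568. All 7 haemato-endothelial markers were higher, with 3016 and 1291 counts. Over all genes compared, 15.4% were higher and 14.7% lower. Of 7 compared streak and mesoderm markers 4 were higher and 3 lower. The higher ones were KDR, HAND1, PDGFRA and FOXF1, with ratios of 1.14 to 2.04. The lower ones were EOMES (0.242, 0.206 to 0.280), MIXL1 (0.351, 0.144 to 0.693) and TBXT (0.377, 0.260 to 0.524). With MESP1, which had too few counts, the 8 summed to 8989 and 8319 counts. Of these KDR held 5184 and 4489, and HAND1 2767 and 2291. Of 3 compared endoderm markers 2 were lower, and with GSC, which had too few counts, the 4 summed to 675 and 998 counts. The neural marker PAX6 had 3 and 10 counts, a ratio of 0.361 with an interval that included 1 (0.053 to 1.15). These marker lists differed between the libraries in both directions, and their part in the ratios of the ribosomal protein genes was not tested.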

How the data were processed

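RNA from 2 libraries, 1 per genotype, was sequenced after preparation with an Illumina TruSeq kit from 2 µg of total RNA, per the labels' protocols. Per the file headers, the deposited tables pair each gene number with expected counts, which are estimated counts without scaling. They also hold FPKM values made by the authors. The submitters' processing notes name BWA, Bowtie, RSEM and hg19, without versions or order. Gene numbers were matched to symbols through RefSeq (GRCh38.p14): 18413 of 18518 matched, and the 105 others held 0.193% and 0.181% of counts in the library labelled MEIS1-/- and the wild-type library. A gene absent from a table was taken as 0.

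Expected counts were rounded, giving totals of 5296397 in the library labelled MEIS1-/- and 5202847 in wild type, and scaled by TMM (edgeR 4.0.16, R 4.3.3); effective sizes differed by 1.04%. Ratios used a pseudocount of 1, and intervals, exact at 95%, did not. They cover counting error only and treat each read as an independent molecule, which copied reads are not. No model was fitted. The computation was tested on simulated counts. The alternatives used DESeq2 1.42.0 size factors, total counts, unrounded counts, other minimums, a pseudocount of 0.5, FPKM, whole-count genes alone and a fold of 2.

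Named genes were the 8 highest and 8 lowest ratios where either library had 50 counts or more, the 5 highest and 5 lowest by FPKM, the MRPS18 paralogs and MRPS30; others were added after their values were seen. The members and lists were chosen with earlier results of these data known, and the promoter motifs after the ratios were seen. For related lists the rule takes up to 3 genes each with the largest ratios in either direction, and the further regulators and ribosome subunits named were added after their values were seen. The blood marker list is not reported here.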

Additional observations from a re-analysis of the deposited data

How the results depend on the processing

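Single genes were recomputed with DESeq2 size factors, total counts, unrounded counts, a pseudocount of 0.5 and FPKM. With these, 150 of 150 values of the 30 named genes stayed within their counting interval. Only MRPS18A, near a ratio of 1, changed sign, in 2 of them. These settings use the same counts again, so staying within the interval is no independent support. Across all alternatives, the median log2 ratio of the 77 genes ranged from 0.10 to 0.13 and the summed ratio from 1.08 to 1.10. The count of higher genes ranged from 9 to 13, with 9 higher and 1 lower (MRPL41) among the 60 genes whose expected counts were whole, since fewer genes were counted. At a fold of 2 in place of 1.5, 0 genes were higher and 0 lower. With DESeq2 size factors or a pseudocount of 0.5, 3 genes were higher by at least 1.5-fold. Adding the 3 listed pseudogenes to their parent genes, an alternative chosen after the data were seen, left 13 higher and 2 lower. No paired analysis was possible because each genotype had 1 library, and no library could be left out. Counts per gene were 35 to 706 in the library labelled MEIS1-/- and 38 to 646 in wild type. A single gene was called only when its interval excluded a ratio of 1, so smaller differences were not detectable.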

Other observations

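KGD4, formerly named MRPS36 and now assigned to a subunit of the 2-oxoglutarate dehydrogenase complex, fell outside the symbol rule. It had 44 counts in the library labelled MEIS1-/- and 39 in wild type, a ratio of 1.11 (0.709 to 1.76), and 6.34 and 5.72 FPKM, near the lowest of the ribosomal protein genes.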
